A study of Homo sapiens with 21 samples.

Results

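The 8 genes described here are 3 receptors of the epidermal growth factor (EGF) family, EGFR, ERBB2 and ERBB3, and 5 of the ligands that bind them, AREG, EREG, HBEGF, TGFA and BTC. They were taken by gene symbol from the raw count table of the xenograft tumors, where they are 8 of 60651 human genes. RNA was sequenced from 21 tumors that had been grown from A549-Luc2 cells, a luciferase-carrying line of human lung adenocarcinoma. The cells had been injected with Matrigel under the skin of the flank of female athymic nu/nu mice aged 6 to 8 weeks. Once tumors averaged 80 to 100 mm3, mice were randomized to 3 groups of 10, and 7 tumors of each group were sequenced. Control mice received the carrier of DMSO, ethanol, PEG400 and corn oil, and the others received Oxy186 or Oxy210, both oxysterol derivatives, in that carrier by daily oral gavage at 50 mg/kg. All tumors came from 1 cell line, and nu/nu mice lack mature T cells but keep other host cells. Reads were aligned to the human and mouse genomes together, and only those placed on the human genome were counted. How fully this removed reads of host cells was not tested.

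EGF-family ligands are made as membrane-bound precursors, are cut free by ADAM proteases and bind the extracellular part of an ERBB receptor. Bound receptors pair with themselves or with each other, phosphorylate their cytoplasmic tails and start the RAS-ERK and PI3K-AKT cascades, which drive growth of many lung adenocarcinomas. ERBB2 has no ligand of its own, and ERBB3 has very weak kinase activity and signals through its partners.

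Total counts per library were 13818998 to 17865119 in Control, 14008787 to 15776682 in Oxy186 and 13787493 to 15758662 in Oxy210. All 6 epithelial carcinoma markers (EPCAM, CDH1, KRT7, KRT8, KRT18 and KRT19) had at least 10 counts in every library. Their summed level was 6976 to 16153 CPM over the 21 tumors. CPM are counts scaled to library size times a normalization factor (trimmed mean of M-values, TMM). By contrast, only 1 of 4 endothelial, 2 of 5 fibroblast and 2 of 5 leukocyte markers had at least 10 counts in every library. Those 5 were the endothelial PECAM1 with 14 to 58 counts, the fibroblast LUM with 566 to 3348 and COL1A1 with 256 to 1031, and the leukocyte ITGAM with 57 to 133 and ADGRE1 with 35 to 100. The endothelial VWF and KDR had at most 2 and 1 counts, and the leukocyte marker PTPRC at most 8. The summed fibroblast markers lay at 112 to 231 CPM in Control, 99.7 to 260 in Oxy186 and 76.7 to 156 in Oxy210, and their part in the results was not tested. Oxy186 tumors fell into replicates 1 to 4 (r1-r4) and 5 to 7 (r5-r7). The study carried r1-r4 forward after a principal component plot of these same samples, so that comparison is not an independent test of a treatment effect. The slope of log2 CPM on exon GC content across genes, taken against the mean of all libraries and given per 10 percentage points of GC, was -0.51 to -0.18 in r1-r4, 0.079 to 0.49 in r5-r7, -0.15 to 0.40 in Control and -0.33 to 0.26 in Oxy210. Results were therefore also computed with GC offsets, which remove a smooth trend of counts with exon GC content from each library.

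The promoters of AREG, EREG and ERBB2 are shown because these are the members whose levels moved with or against each other across tumors, as described further on. They come from RefSeq on GRCh38.p14, which matched 7 of the 8 members, and hold 250 bases before and 50 after the annotated start, read on the plus strand. Capitals mark matches to 3 motifs searched on both strands. The cyclic AMP response element (CRE) was spelled TGACGTCA. The TATA box was spelled TATAAA. The GC box was spelled GGGCGG, or its reverse complement. AREG encodes amphiregulin and EREG epiregulin, neighbouring genes on chromosome 4, and ERBB2 lies on chromosome 17.
AREG promoter, chr4:74444886-74445185: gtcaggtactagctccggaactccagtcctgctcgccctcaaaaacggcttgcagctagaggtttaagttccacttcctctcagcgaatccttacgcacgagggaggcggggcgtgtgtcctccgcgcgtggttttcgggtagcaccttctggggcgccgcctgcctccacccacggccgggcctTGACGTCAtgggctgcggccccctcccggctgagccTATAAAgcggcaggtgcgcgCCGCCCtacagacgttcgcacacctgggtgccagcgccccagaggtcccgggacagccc
EREG promoter, chr4:74364895-74365194: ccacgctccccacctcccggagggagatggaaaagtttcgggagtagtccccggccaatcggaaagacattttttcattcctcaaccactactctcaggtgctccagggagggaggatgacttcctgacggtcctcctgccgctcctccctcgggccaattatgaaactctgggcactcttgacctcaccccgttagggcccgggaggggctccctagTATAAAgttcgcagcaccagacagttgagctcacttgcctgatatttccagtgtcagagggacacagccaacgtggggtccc
ERBB2 promoter, chr17:39687844-39688143: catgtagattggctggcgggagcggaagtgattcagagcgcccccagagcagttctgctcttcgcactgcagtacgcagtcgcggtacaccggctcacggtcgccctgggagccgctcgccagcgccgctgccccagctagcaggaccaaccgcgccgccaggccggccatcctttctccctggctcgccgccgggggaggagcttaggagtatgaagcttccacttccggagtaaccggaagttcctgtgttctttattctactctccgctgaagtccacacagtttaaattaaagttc
The AREG window held 1 CRE starting at position -65, 1 TATA box at -29 and 1 GC box at -9, counted from the annotated start. The EREG window shared only the TATA box, at -32. The ERBB2 window held none of the 3 motifs nor the AP-1 motif TGACTCA or TGAGTCA. Each gene was given 1 start, and that of ERBB2 lies at the outer end of its span of 39687914 to 39730426. Other starts within that span were not searched, so the lack of motifs holds for this window alone. Of 35116 promoters of the same length, 1.85% held the CRE, 11.5% the TATA box, 45% the GC box and 4.95% the AP-1 motif. A match describes the letters and does not show that a factor was bound.

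The receptors were the most abundant of the family per exon length. Levels are given in RPKM (reads per kilobase of exon, scaled to library size times its TMM factor), with all annotated exons of a gene merged into its length. The order of genes by RPKM depends on this choice of length. ERBB2 had a control level of 14.2 ± 2.88 (SD, n = 7), ERBB3 of 12.4 ± 2.49 and EGFR of 6.44 ± 1.45. ERBB2 and ERBB3 did not differ beyond their spread, since ERBB2 was the higher in 14 of 21 tumors and the control ranges overlapped. ERBB3 was above EGFR in 20 of 21 tumors, and their control ranges did not overlap. By share of the RPKM summed over these 3 receptors, ERBB2 made up 42.7% ± 4.73 (SD, n = 7) in Control, ERBB3 37.3% ± 4.08 and EGFR 20% ± 5.81. ERBB4, the remaining receptor and one that binds neuregulins, had 0 to 8 counts per library.

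Among the ligands, TGFA, which encodes transforming growth factor alpha, was the most abundant per length in Control at 4.31 ± 0.594 RPKM (SD, n = 7). AREG followed at 2.96 ± 1.14, EREG at 2.81 ± 0.672 and BTC, which encodes betacellulin, at 2.34 ± 0.594. HBEGF, the heparin-binding ligand that is also the diphtheria toxin receptor, was lowest of the 5 at 1.56 ± 0.659. TGFA exceeded AREG in 18 of 21 tumors, while AREG exceeded EREG in 11 and EREG exceeded BTC in 10, so the order of those 3 was not resolved. Among ligands outside the 8 genes, NRG1, a neuregulin that binds ERBB3 and ERBB4, had 2.26 RPKM and NRG4 1.9. Without division by length, NRG1 was above TGFA, with control means of 48.3 and 21.2 CPM. Their merged exon lengths were 21372 and 4917 bases. The level of NRG4 is uncertain, because 38.2% of its exon bases lie opposite FBXO22 and whether counting used strand is not given in the sources used here. EGF itself was at 0.311 RPKM with 18 to 51 counts per library, EPGN had 0 to 5 counts, and NRG3 had 0 counts in all 21 tumors.

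**Figure D1:**
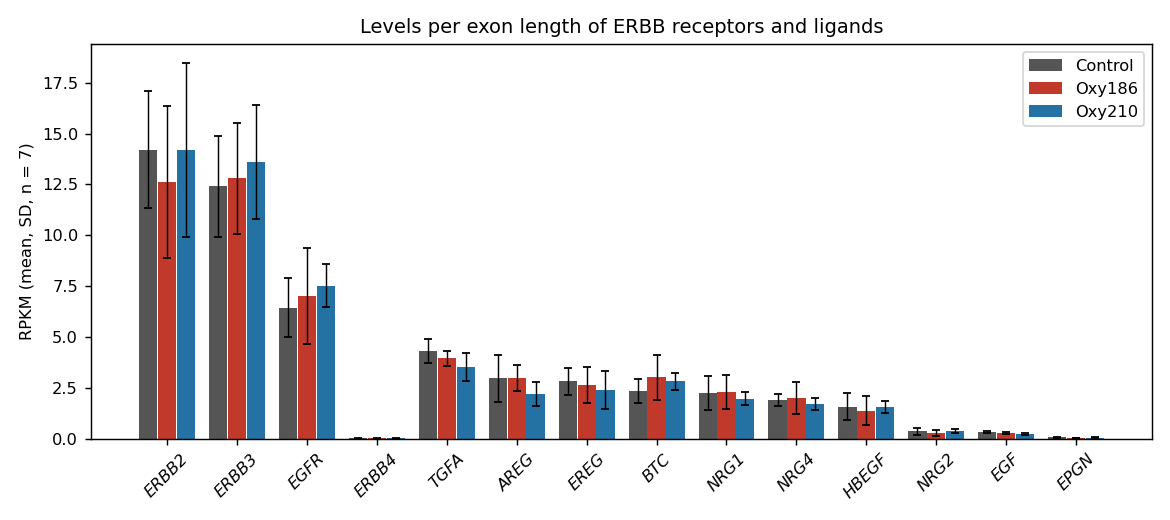
Mean RPKM (y axis, linear from 0) of 4 ERBB receptors and 10 ligands (x axis) in Control, Oxy186 and Oxy210 tumors; bars are means of 7 tumors and whiskers are 1 SD. ERBB2 and ERBB3 stand highest in each group, TGFA leads the ligands per merged exon length, and ERBB4 and EPGN lie near 0. NRG3, at 0 counts in all tumors, is not drawn.

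No member passed the test between treated and control tumors when all 7 tumors of each group were used. With edgeR's quasi-likelihood test and a gene called when its fold change was over 2 and its adjusted p (Benjamini-Hochberg) was 0.05 or less, 0 of 8 members were called in Oxy186 against Control, where 0% of 16291 tested genes were called and 234 were higher and 384 lower at an unadjusted p under 0.05. The count was 0 of 8 in Oxy210 against Control, where 0% of 16396 genes were called and 938 were higher and 1332 lower at an unadjusted p under 0.05. All 8 members passed the filter on low counts in every comparison. No member passed by DESeq2 or limma voom either, although DESeq2 called 22 genes in Oxy210. Every 95% interval of a member's fold change lay inside 2-fold in both directions, from 0.549 (HBEGF) to 1.77 (BTC) for Oxy186 and from 0.535 (AREG) to 1.56 (BTC) for Oxy210. Both comparisons share the 7 control tumors, and the p-values set each group difference against the variation between these tumors. In such bulk samples, fewer cells of a type and less RNA per cell cannot be told apart.

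**Figure D2:**
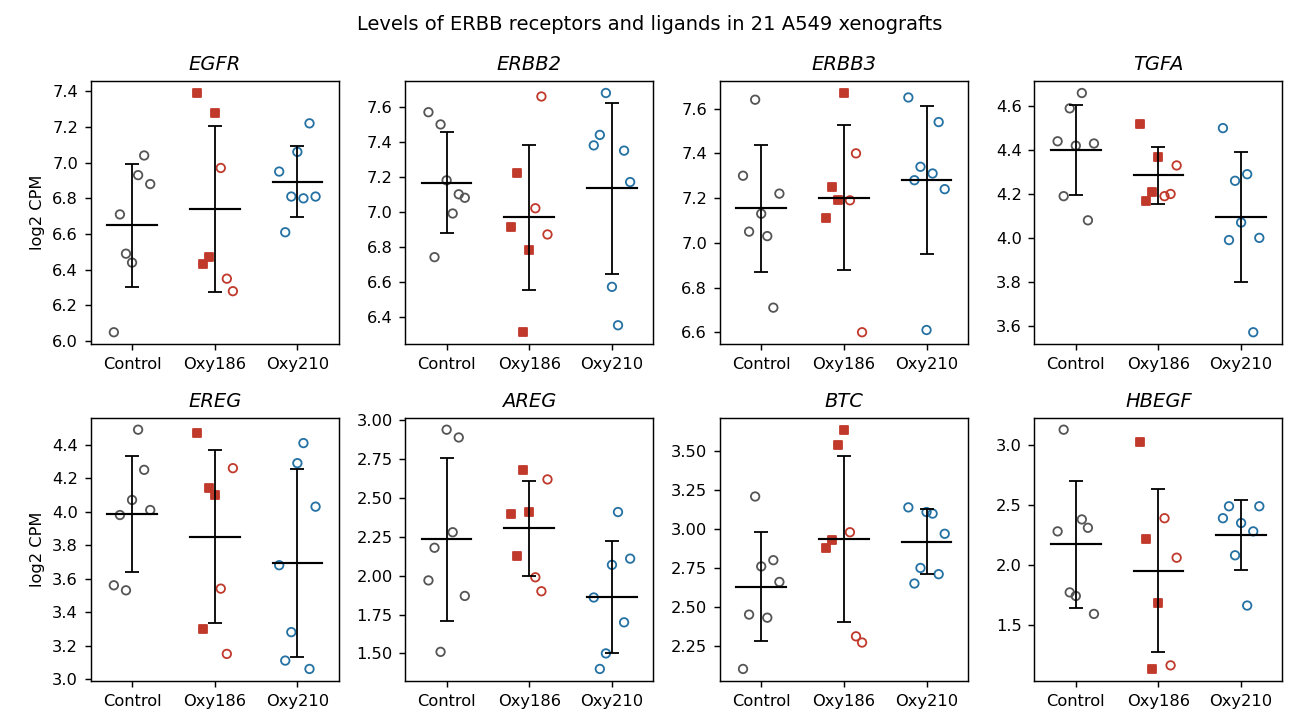
Log2 CPM (y axis, each panel with its own range) of the 8 members in each of 21 tumors by group (x axis); filled squares are Oxy186 r1-r4, open circles all other tumors, horizontal lines the means and whiskers 1 SD (n = 7). The 3 groups overlap in every panel, and 2 of the 4 filled squares for BTC lie above all control tumors.

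EGFR (ENSG00000146648, chromosome 7, 55019017 to 55211628, plus strand on GRCh38) encodes the receptor for all 5 of the ligands. Its log2 CPM ran from 6.05 to 7.04 in Control with a median of 6.71, from 6.28 to 7.39 in Oxy186 with a median of 6.47, and from 6.61 to 7.22 in Oxy210 with a median of 6.81. In Oxy186, r1 and r4 were above every control tumor, at 7.39 and 7.28, while the other 5 tumors lay within the control range. In Oxy210, r4 and r6 were above it at 7.06 and 7.22. The log2 fold change was 0.10 (SE 0.21, adjusted p = 0.925) in Oxy186 and 0.24 (SE 0.15, adjusted p = 0.436) in Oxy210.

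ERBB2 (ENSG00000141736, chromosome 17, 39687914 to 39730426, plus strand), the preferred pairing partner of the other receptors, ran from 6.74 to 7.57 log2 CPM in Control (median 7.10), from 6.31 to 7.66 in Oxy186 (median 6.91) and from 6.35 to 7.68 in Oxy210 (median 7.35). Tumors of both treated groups were spread to both sides of the controls. In Oxy210, r4 and r5 lay below all controls at 6.57 and 6.35 and r3 above them at 7.68. In Oxy186, r3 lay below all controls at 6.31 and r6 above them at 7.66. The log2 fold changes were -0.18 (SE 0.18, adjusted p = 0.864) for Oxy186 and 0.025 (SE 0.17, adjusted p = 0.954) for Oxy210. The values were 0.053 and 0.15 with GC offsets, the first with its direction turned, and the exon GC content of ERBB2, 57.6%, is above that of 81.5% of tested genes. Some 6.9% of its exon bases lie opposite MIEN1 or PGAP3.

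ERBB3 (ENSG00000065361, chromosome 12, 56076799 to 56103505, plus strand) ran from 6.71 to 7.64 log2 CPM in Control (median 7.13), from 6.60 to 7.67 in Oxy186 (median 7.19) and from 6.61 to 7.65 in Oxy210 (median 7.31). The groups overlapped almost fully, and the low end of Oxy210 was a single tumor, r4. The log2 fold changes were 0.034 (SE 0.15, adjusted p = 0.968) and 0.16 (SE 0.15, adjusted p = 0.614) for Oxy186 and Oxy210, and 0.076 and 0.18 with GC offsets.

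TGFA (ENSG00000163235, chromosome 2, 70447284 to 70554193, minus strand) varied least among the members. It ran from 4.08 to 4.66 log2 CPM in Control (median 4.43), from 4.17 to 4.52 in Oxy186 (median 4.21) and from 3.57 to 4.50 in Oxy210 (median 4.07). Of the 7 Oxy210 tumors 4 lay below every control tumor, the lowest being r6 at 3.57. The log2 fold change of -0.27 (SE 0.14) in Oxy210 did not pass (adjusted p = 0.375). With GC offsets it was -0.29, with a 95% interval of -0.56 to -0.015 and an adjusted p of 0.326. In Oxy186 it was -0.14 (SE 0.12, adjusted p = 0.862).

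AREG (ENSG00000109321, chromosome 4, 74445136 to 74455005, plus strand), a lower-affinity EGFR ligand, ran from 1.51 to 2.94 log2 CPM in Control (median 2.18), from 1.90 to 2.68 in Oxy186 (median 2.40) and from 1.40 to 2.41 in Oxy210 (median 1.86). It rested on 37 to 109 counts per library, and r2 and r3 of Oxy210 lay below the control range. The log2 fold change was -0.0046 (SE 0.23, adjusted p = 0.997) for Oxy186 and -0.40 (SE 0.24, adjusted p = 0.437) for Oxy210. With GC offsets the Oxy210 value was -0.50, with a 95% interval of -0.96 to -0.032 and an adjusted p of 0.322.

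EREG (ENSG00000124882, chromosome 4, 74365145 to 74388749, plus strand), which can activate EGFR and ERBB4, ran from 3.53 to 4.49 log2 CPM in Control (median 4.01), from 3.15 to 4.47 in Oxy186 (median 4.10) and from 3.06 to 4.41 in Oxy210 (median 3.68). Treated tumors extended lower than controls, with 2 Oxy186 and 3 Oxy210 tumors below the lowest control tumor and none above the highest. The log2 fold changes were -0.11 (SE 0.22, adjusted p = 0.924) for Oxy186 and -0.21 (SE 0.23, adjusted p = 0.67) for Oxy210. With GC offsets they were -0.21 (adjusted p = 0.903) and -0.37 (adjusted p = 0.367).

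HBEGF (ENSG00000113070, chromosome 5, 140332843 to 140346603, minus strand) ran from 1.59 to 3.13 log2 CPM in Control (median 2.28), from 1.13 to 3.03 in Oxy186 (median 2.06) and from 1.66 to 2.49 in Oxy210 (median 2.35). It rested on 29 to 133 counts per library, and r3 and r6 of Oxy186 lay below all controls. The log2 fold changes were -0.19 (SE 0.32, adjusted p = 0.914) and 0.026 (SE 0.23, adjusted p = 0.964) for Oxy186 and Oxy210.

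BTC (ENSG00000174808, chromosome 4, 74744759 to 74794523, minus strand), a ligand of EGFR and ERBB4, ran from 2.10 to 3.21 log2 CPM in Control (median 2.66), from 2.27 to 3.64 in Oxy186 (median 2.93) and from 2.65 to 3.14 in Oxy210 (median 2.97). The 2 tumors above the control range were r3 and r4 of Oxy186, at 3.54 and 3.64. The log2 fold change was 0.33 (SE 0.23, adjusted p = 0.862) for Oxy186 and 0.29 (SE 0.17, adjusted p = 0.423) for Oxy210. With GC offsets they were 0.20 (adjusted p = 0.915) and 0.15 (adjusted p = 0.692). As a share of the RPKM summed over the 5 ligands, BTC made up 16.9% ± 4.65 (SD, n = 7) in Control, 21.4% ± 6.09 in Oxy186 and 22.7% ± 1.2 in Oxy210, with no correction for GC content.

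Oxy186 and Oxy210 were compared directly as 1 pair of compounds at the matched dose of 50 mg/kg. None of the 8 members was called, where 0% of 16361 tested genes were called and 514 were higher and 150 lower at an unadjusted p under 0.05. AREG differed most, being higher under Oxy186 by a log2 fold change of 0.42 with a 95% interval of -0.0085 to 0.86 (adjusted p = 0.9996). With GC offsets, where 0 members and 0.00611% of tested genes passed at an adjusted p of 0.05, it was also 0.42, with an interval of 0.05 to 0.78 and an adjusted p of 0.59. r3 and r7 of Oxy186 exceeded all Oxy210 tumors for AREG, and none was below them. For EGFR the interval of the log2 difference was -0.49 to 0.27, for ERBB2 -0.62 to 0.25 and for ERBB3 -0.43 to 0.24. For the other ligands it was -0.43 to 0.68 for EREG, -0.76 to 0.39 for HBEGF, -0.14 to 0.45 for TGFA and -0.38 to 0.53 for BTC. These intervals bound the difference and do not show that the compounds acted alike.

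**Figure D3:**
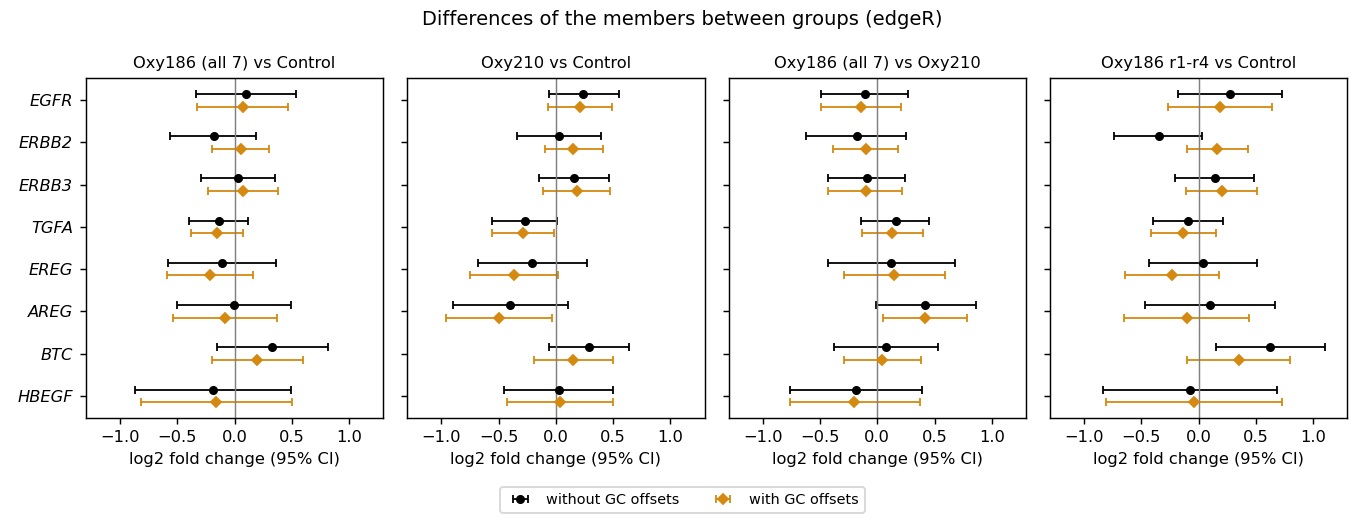
Log2 fold change with its 95% interval (x axis) of each member (y axis) from edgeR in 4 comparisons, without (black circles) and with (orange diamonds) GC offsets. Intervals cross 0 in the first 3 panels except for AREG and TGFA in Oxy210 and AREG between the compounds, all with GC offsets, and in the last panel BTC leaves 0 only without them.

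In the r1-r4 tumors against Control, BTC stood highest among the members and ERBB2 lowest. None of the 8 members was called, beside 8.34% of 16852 tested genes (0.214% higher and 8.13% lower). At an adjusted p at or under 0.05 with no fold threshold, 0 members passed beside 19.7% of tested genes (4.73% higher and 15% lower). With GC offsets 0 members passed on this rule beside 4.05% of tested genes. BTC was at 2.88, 2.93, 3.54 and 3.64 log2 CPM in r1 to r4, against 2.10 to 3.21 in Control and 2.27 to 2.98 in r5-r7. Its log2 fold change was 0.62 (SE 0.22, 95% interval 0.15 to 1.10, adjusted p = 0.0596). The adjusted p thus missed 0.05 narrowly. With GC offsets the log2 fold change was 0.35 (adjusted p = 0.403). By DESeq2 the adjusted p of BTC was 0.0248 at a log2 fold change of 0.65, and the fold stayed under 2.

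ERBB2 was at 6.91, 7.22, 6.31 and 6.78 log2 CPM in r1 to r4, so that 3 of 4 lay inside the control range and r3 below it. Its log2 fold change was -0.35 (SE 0.18, adjusted p = 0.179) and turned to 0.16 (adjusted p = 0.526) with GC offsets. The members' log2 CPM moved with the GC slope of the library across the 21 tumors for ERBB2 (Pearson's r = 0.75, permutation p = 0.0001, adjusted p = 0.0008 over 8 genes). Spearman's rho was 0.70 (permutation p = 0.00063, permutation adjusted p = 0.00504). Without the 2 tumors whose slope lay farthest from the median, r was 0.68. For BTC r was -0.70 (permutation p = 0.00048, adjusted p = 0.00192, rho = -0.54 with permutation p = 0.0132), and it was -0.51 without the 2 farthest tumors. For EGFR r was -0.53 (permutation p = 0.0127, adjusted p = 0.0339, rho = -0.51 with permutation p = 0.019) and -0.65 without those 2. By rank, BTC and EGFR missed the threshold of 0.05 after adjustment (permutation adjusted p of rho = 0.0507 for both). Without r1-r4, over 17 tumors, r was 0.72 for ERBB2, -0.50 for BTC and -0.69 for EGFR. BTC has an exon GC content of 38.7%, above that of 10.7% of tested genes. That of EGFR is 46.7%, above that of 46.2% of tested genes. EREG, with the lowest exon GC content of the members at 36.8%, had r = -0.46 and did not pass (permutation adjusted p = 0.0729). The slope was itself fitted to the log2 CPM of these libraries, so its relation to GC-rich or GC-poor genes is partly built in. How many other genes follow the slope as closely is not given here. The other 6 members had log2 fold changes in r1-r4 of -0.092 (TGFA) to 0.27 (EGFR), none of which passed.

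The machinery on either side of the receptors was described with lists of known pathway genes. Of 4 genes of ligand shedding (the proteases ADAM10 and ADAM17 and the iRhoms RHBDF1 and RHBDF2, which carry ADAM17 to the cell surface), 0 passed at an adjusted p of 0.05 in any of the comparisons with 7 tumors a group. In r1-r4, RHBDF2 fell by 1.17 (adjusted p = 0.00172) and RHBDF1 fell by 0.81 (adjusted p = 0.00841) on the log2 scale, and neither ADAM protease passed. Of all tested genes 15% were lower on that rule. With GC offsets 0 of 4 passed in r1-r4, beside 4.05% of all tested genes. Exon GC content is 61.8% for both iRhoms.

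Of 21 genes of signal transduction downstream of the receptors, 5 passed in r1-r4 without GC offsets, 1 higher and 4 lower, beside 4.73% of all tested genes higher and 15% lower on that rule. SOS1, the exchange factor that loads RAS with GTP, rose by 0.40 (adjusted p = 0.0286) and has an exon GC content of 37.1%. MAP2K2, an ERK kinase, fell by 1.34 (adjusted p = 0.003), the kinase AKT1 fell by 0.69 (adjusted p = 0.00835), and the adaptors GRB2 and SHC1 fell by 0.44 and 0.40 (adjusted p = 0.0367 and 0.0297). Exon GC content is between 53.4% and 62.4% for the 4 lower genes. None of these 5 passed with GC offsets, and HRAS, a RAS GTPase, passed instead with a log2 fold change of 0.93 (adjusted p = 0.00296), beside 4.05% of all tested genes. The median over the 21 genes was 0.091 against 0.006 over all tested genes, and 0 of 21 passed in the comparisons with 7 tumors a group.

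None of 14 feedback inhibitors of ERBB and ERK signalling, such as ERRFI1, the sprouty proteins and the ERK phosphatases DUSP4, DUSP5 and DUSP6, passed in any comparison, with or without GC offsets. On that rule at most 0.00611% of all tested genes passed in the comparisons with 7 tumors a group, and 19.7% without and 4.05% with GC offsets in r1-r4. The largest difference among them in Oxy210 was DUSP5, with a log2 fold change of -0.75 (adjusted p = 0.298), and in Oxy186 it was -0.74 (adjusted p = 0.862).

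Of 10 transcripts known to respond to ERK activity, 0 passed in Oxy186 or Oxy210 against Control. All 10 had log2 fold changes below 0 in each of these comparisons, which share their control tumors. Their medians were -0.21 and -0.30, beside -0.0067 and 0.0086 over all tested genes. Of all tested genes, 8323 of 16291 were below 0 for Oxy186 and 7992 of 16396 for Oxy210. With GC offsets 8 of 10 were below 0 for Oxy186 and 10 of 10 for Oxy210, with medians of -0.17 and -0.16. Beside them stood 7690 of 16291 and 8158 of 16396 tested genes. The list was not tested as a set. The early growth response factor EGR1 had log2 fold changes of -1.23 (adjusted p = 0.862) and -1.06 (adjusted p = 0.32), and the AP-1 subunit FOSL1 of -0.64 (adjusted p = 0.862) and -0.77 (adjusted p = 0.246). Between Oxy186 and Oxy210 the list split evenly, 5 above and 5 below 0. In r1-r4, EPHA2 fell by 0.95 (adjusted p = 0.00408) and ETV4 fell by 0.66 (adjusted p = 0.0395) without GC offsets, and IER3 rose by 0.77 (adjusted p = 0.0221) with them. These 2 of 10 without offsets stand beside 15% of all tested genes lower on that rule, and the 1 of 10 with offsets beside 4.05% passing.

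Of the 7 family genes outside the 8, EGF, NRG1, NRG2 and NRG4 had enough counts to be tested, and none passed in any comparison. EGF had 18 to 35 counts in Oxy210 tumors against 23 to 48 in Control, a log2 fold change of -0.47 (adjusted p = 0.324). NRG2 in r1-r4 was at -0.84 (adjusted p = 0.129), and its exon GC content is 61.6%.

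Across the 21 tumors, AREG and EREG rose and fell together, and both ran opposite to ERBB2 and, over all 21 tumors by rank correlation alone, to ERBB3. Of the 28 pairs of members, 3 passed at an adjusted p of Pearson's r at or under 0.05, from 100000 permutations with Benjamini-Hochberg adjustment over the 28 pairs. How often other gene pairs correlate as strongly in these tumors is not given here. This count is therefore not shown to be particular to the members. AREG and EREG had r = 0.73 (permutation p = 0.00021, adjusted p = 0.00294) and rho = 0.75 (permutation p = 0.00017, adjusted p = 0.00238). The relation held without the 2 farthest tumors (r = 0.77) and had r = 0.63 in Control, 0.85 in Oxy186 and 0.93 in Oxy210. For this and the later pairs, the 2 farthest tumors are those farthest from the median of the first-named gene. Extremes of the other gene stayed in. After removal of the GC trend r was 0.71 (permutation adjusted p = 0.00812).

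The lowest EREG tumors, r6 and r2 of Oxy210 at 3.06 and 3.11 log2 CPM, had AREG at 1.70 and 1.40. In contrast, r5 of Oxy210 had EREG at 4.41 and AREG at 2.41. Thus the relation ran through tumors of a single treatment and did not separate the groups.

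ERBB2 and EREG had r = -0.75 (permutation p = 0.00016, adjusted p = 0.00294) and rho = -0.76 (permutation p = 0.00011, adjusted p = 0.00238). Within groups r was -0.72 in Control, -0.75 in Oxy186 and -0.87 in Oxy210, and it was -0.76 without the 2 farthest tumors. With the GC trend removed it was -0.68 (permutation adjusted p = 0.00812). The tumor with the lowest ERBB2, r3 of Oxy186 at 6.31, had EREG at 4.14, and r3 of Oxy210 with the highest ERBB2, at 7.68, had EREG at 3.28.

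ERBB2 and AREG had r = -0.60 (permutation p = 0.004, adjusted p = 0.0373) and rho = -0.68 (permutation p = 0.00097, adjusted p = 0.00905). Within groups r was -0.37 in Control, -0.85 in Oxy186 and -0.87 in Oxy210, and it was -0.55 without the 2 farthest tumors and -0.54 (permutation adjusted p = 0.0481) with the GC trend removed. Without r1-r4 it was -0.52 over 17 tumors and no longer passed (permutation adjusted p = 0.126), whereas AREG with EREG (r = 0.74) and ERBB2 with EREG (r = -0.78) still did. ERBB3 had r = -0.51 for AREG (permutation adjusted p = 0.101; rho = -0.56, permutation adjusted p = 0.0499) and -0.53 for EREG (permutation adjusted p = 0.0867; rho = -0.61, permutation adjusted p = 0.0286). By Pearson's r these pairs missed the threshold over 21 tumors and passed it without r1-r4, at -0.63 (permutation adjusted p = 0.0437) and -0.65 (permutation adjusted p = 0.0427). The setting without r1-r4 was added after seeing the data. ERBB2 has the highest exon GC content of the members and EREG the lowest, 36.8%, and pairs of log2 CPM values share each library's depth and normalization.

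**Figure D4:**
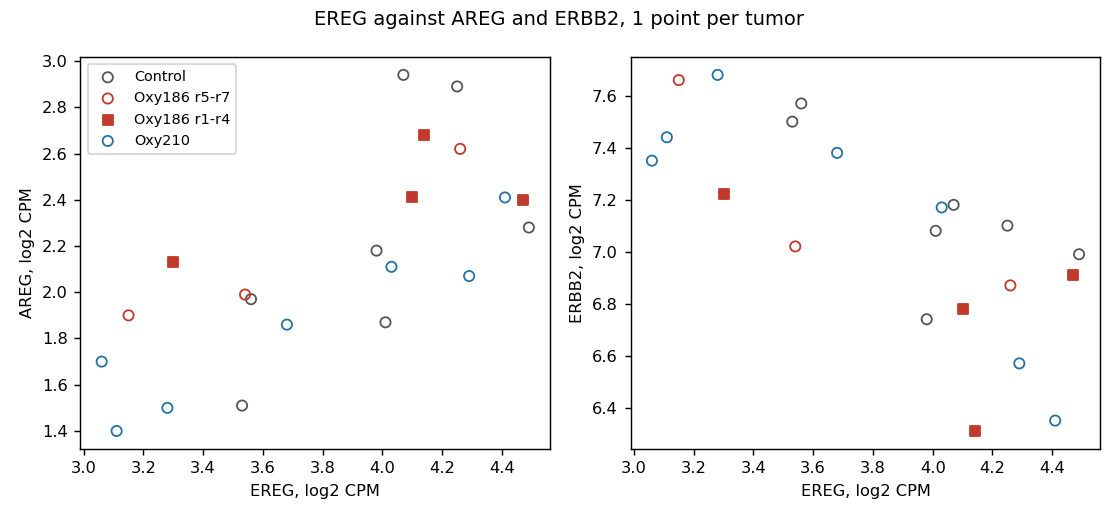
Log2 CPM of AREG (left) and ERBB2 (right) on the y axes against log2 CPM of EREG on the x axes, 1 point per tumor for 21 tumors, with Oxy186 r1-r4 as filled squares. AREG rises with EREG (r = 0.73) and ERBB2 falls (r = -0.75), and the groups are intermixed along both relations.

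With the GC trend removed, 7 of 28 pairs passed, 3 positive and 4 negative, and all 3 pairs above were among them. The share of other gene pairs is not given for this scaling either. ERBB2 with ERBB3 had r = 0.58 (permutation adjusted p = 0.0441), ERBB3 with AREG -0.54 and ERBB3 with EREG -0.55 (permutation adjusted p = 0.0481 for both). EREG with TGFA had r = 0.61 (permutation adjusted p = 0.0307) but 0.30 without the 2 farthest tumors, so it rested on those. EGFR, HBEGF and BTC were in no pair that passed under either scaling.

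**Figure D5:**
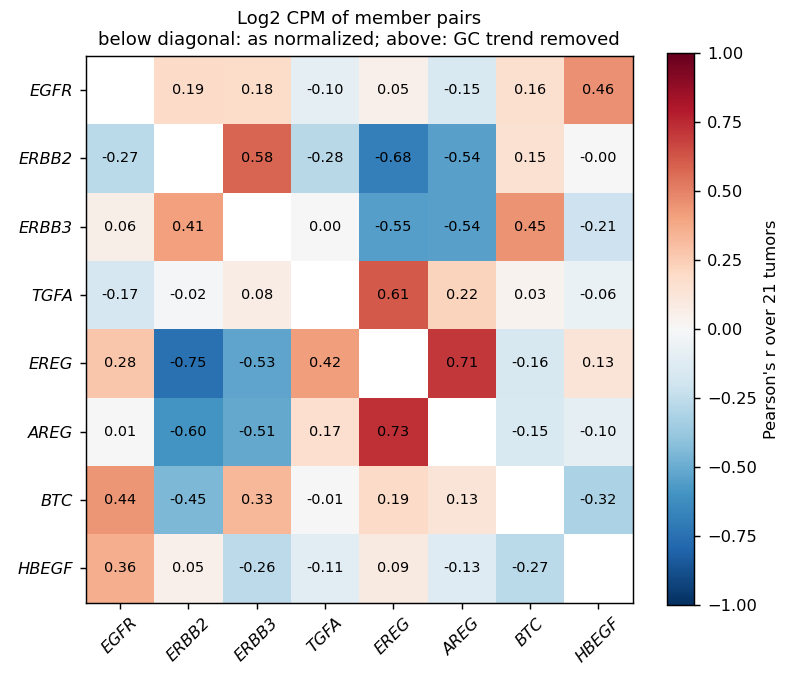
Pearson's r over 21 tumors for each pair of the 8 members (both axes), as normalized below the diagonal and with the GC trend removed above it, on a color scale from -1 (blue) to 1 (red). AREG with EREG is the strongest positive pair (0.73 and 0.71) and ERBB2 with EREG the strongest negative one (-0.75 and -0.68).

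Of the other family genes, NRG1 followed EREG with r = 0.80 and AREG with r = 0.73 over 21 tumors, given as a description, and 0.76 and 0.69 with the GC trend removed. EGF followed TGFA with r = 0.71 and 0.76. Among 13607 genes searched, the gene most like EGFR in log2 CPM over the 21 tumors was OSMR, the oncostatin M receptor (r = 0.91), and with the GC trend removed OSMR and SMAD3, a mediator of TGF-beta signalling, both had 0.90. For ERBB2 it was SLC45A4 (r = 0.93 under both), and for AREG the glutathione transferase GSTM3 (0.77 and 0.79). IGFL2 was among the genes most like EREG (0.81, and 0.88 with the trend removed). BPIFB1 was most like TGFA (0.82, and 0.77 with the trend removed, where SLC30A7 had 0.78). The kinase PAK1 was most like BTC (0.86, and 0.75 with the trend removed, where ZNF235 also had 0.75). For ERBB3 and HBEGF the leading gene differed between the scalings, AP000757.2 (0.82) and RRN3P1 (0.83) for ERBB3, and AC087501.4 (0.76) and CEP68 (0.81) for HBEGF.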

How the data were processed

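RNA was sequenced from 21 A549-Luc2 xenografts, 7 each of Control, Oxy186 and Oxy210. The authors trimmed reads with Trimmomatic 0.39, aligned them with STAR 2.7.6a to a combined human and mouse genome and counted uniquely mapped reads with featureCounts of Subread 2.0.1, which gave the deposited raw counts of human genes. They also deposited log2 CPM values for Control and Oxy186 r1-r4, which were recomputed to within 4.97e-14 over 16852 genes and not used further.

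Counts were tested with edgeR 4.0.16 (R 4.3.3) after filterByExpr and TMM normalization. Log2 CPM used a prior count of 2. Exon lengths and GC content came from GENCODE 44 on GRCh38, with GC for 99.8% of genes tested in r1-r4. The alternatives were limma 3.58.1 voom, DESeq2 1.42.0, RLE normalization, other filters, all libraries in 1 fit, GC offsets (splines with 4 degrees of freedom), a replicate block and left-out replicates. Correlations used 100000 two-sided permutations. Members are named in every comparison, list genes where they passed or had the largest differences. A few named correlates and examples were picked after their values were seen. The members and lists were chosen with earlier results of these data known. Some items are not reported here. The test was checked on simulated counts.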

Additional observations from a re-analysis of the deposited data

Results flagged for a closer look

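In Oxy210 replicate 4 the log2 CPM of ERBB3 was 6.61, far below the other 6 tumors of its group: the gap to the nearest of them was 0.61 of the whole range of the group. This was 1 of 24 gene and group combinations examined. Chance flags about 1 in 20 groups, or 1.2 of these 24. Leaving that tumor out, a choice made after seeing the data, left 0 members called in Oxy210 against Control and against Oxy186.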

How the results depend on the processing

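The count of members called was 0 in all comparisons under each alternative run. Of 336 alternative log2 fold changes, 317 kept their direction and 19 reversed, all of values that had not passed. None was called on the rule of a fold over 2 with an adjusted p at or under 0.05. For ERBB2 these were 0.053 with GC offsets and 0.044 with GC offsets and the replicate block in Oxy186, -0.011 with limma voom and with the replicate block in Oxy210, and 0.16 and 0.20 with GC offsets without and with the block in r1-r4. AREG in Oxy186 became 0.06 (voom), 0.021 (DESeq2 and RLE), 0.011 (at least 10 counts), 0.014 (1 fit) and 0.049 (replicate block), and in r1-r4 -0.10 with GC offsets. EREG in r1-r4 became -0.23 with GC offsets and -0.15 with the block added. Leaving out r1, r2, r3 or r4 gave -0.0014 to 0.19 for AREG, -0.12 to 0.23 for EREG and -0.54 to 0.16 for HBEGF in r1-r4. BTC in r1-r4 had an adjusted p under 0.05 in 5 alternatives (DESeq2, RLE, 1 fit, without r1 and without r2), at 0.53 to 0.74 on the log2 scale over the left-out replicates. Its adjusted p by edgeR in the main fit was 0.0596, so these 5 changed side on adjusted p alone. Correlated pairs numbered 7 with the GC trend removed, against 3. The causes were not tested.

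Deviations of log2 CPM from the group mean correlated at -0.4 to 0.33 between same-numbered libraries of different groups. Libraries of different number were not compared, so whether replicate numbers pair the tumors was not tested. The replicate block left 0 members called. Genes called in r1-r4 numbered 1635 with the block, 68 with the block and GC offsets, 201 with GC offsets alone and 3323 by adjusted p alone, against 1406. In Oxy210 they were 22 by DESeq2, 7 without a filter and 1 with the block, against 0. AREG and HBEGF rested on as few as 37 and 29 counts per library. The intervals cover the spread between these tumors only.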
